A study of Homo sapiens with 6 samples.

Results

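The genes described here are 8 leukocyte immunoglobulin-like receptors (LILRA1, LILRA2, LILRA5, LILRA6, LILRB1, LILRB2, LILRB3 and LILRB4) with the related receptors LAIR1 and SIRPA. They were taken by symbol, from a list chosen with earlier results of these data known. They make 10 of the 34918 genes to which transcripts were assigned. THP-1 is an established human cell line derived from an acute monocytic leukaemia. The study compared THP-1 stocks from 2 cell banks, ATCC and DSMZ, with 3 poly(A) RNA libraries from each. Cells of both groups were untreated and were grown side by side at 37 °C and 5% CO2 in RPMI with 20% FBS, for 48 h and, after a split, another 24 h, and were collected while still dividing. The replicates of each bank were separate expansions of its stock, so p-values measure the spread between expansions, and the bank cannot be told apart from the particular stock it supplied.

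Receptors of this group are carried by monocytes, macrophages and other leukocytes, and come in activating and inhibitory forms. The LILRB receptors, LAIR1 and SIRPA have long cytoplasmic tails with immunoreceptor tyrosine-based inhibitory motifs (ITIMs), which, once phosphorylated, recruit the phosphatases SHP-1 (PTPN6), SHP-2 (PTPN11) and, for some receptors, SHIP-1 (INPP5D). Most LILRA receptors have short tails and signal through the partner chain FcR-gamma (FCER1G), which in turn engages the kinase SYK. Several LILR proteins bind HLA class I, LAIR1 binds collagens, and SIRPA binds CD47, the signal by which cells are spared from phagocytosis.

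The reading frames of the annotated transcripts (GENCODE 29, GRCh38) show this division among the members. In the longest coding transcript of each gene, the stretch after the most hydrophobic window of 21 codons was measured, without the stop codon. It was 7 codons long in LILRA1, 13 in LILRA2, 16 in LILRA5 and 13 in LILRA6, and held no ITIM codons. It was 169 codons long in LILRB1 and in LILRB4, 167 in LILRB3, 116 in LILRB2, 101 in LAIR1 and 114 in SIRPA. The search asked for a tyrosine with serine, isoleucine, valine or leucine 2 residues before it and isoleucine, valine or leucine 3 residues after it. It found 3 such places in LILRB1, LILRB3, LILRB4 and SIRPA, and 2 in LILRB2 and LAIR1. The coding bases of 1 motif each are shown, 5′ to 3′ with the tyrosine codon in capitals, because this motif is what separates the inhibitory from the activating members.
LILRB1, tyrosine codon 665: gtgaccTACgcccagctg
LILRB2, tyrosine codon 562: gtgaccTACgcccagctg
LILRB3, tyrosine codon 607: gtgaccTACgcccagctg
LILRB4, tyrosine codon 413: gtgaccTACgcccggctg
LAIR1, tyrosine codon 251: gtgacgTATgctcagctg
SIRPA, tyrosine codon 433: atcacaTATgcagacctg
These 18 bases were the same in LILRB1, LILRB2 and LILRB3, and the other members had different letters. Such identity runs through the family and bears on how reads could be divided among the genes. Of all 31-base words in the transcripts of a gene, the word length by default used by kallisto, the share also found in another gene was 41.5% for LILRB3 and 36.1% for LILRA6, mostly words of each other. It was 32.4% for LILRB1, 29.3% for LILRA2, 27.3% for LILRB2, 19.9% for LILRB4, 18.1% for LILRA1, 17.5% for SIRPA, 15.4% for LILRA5 and 9.56% for LAIR1. Values of LILRA6 and LILRB3 are therefore uncertain as to which gene the reads came from. Words were counted over the GENCODE 29 transcripts, not over the deposited transcript set, which also held copies from alternative sequences of the genome build. The shares in that set may differ.

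The libraries held 23413428 to 37119721 estimated counts. Of 14572 genes with enough counts to be tested, 7262 passed an adjusted p of 0.05 between the banks (edgeR's quasi-likelihood test with Benjamini-Hochberg adjustment). Without ATCC replicate 2 this number was 9509, and leaving out any other library gave 5508 to 7425. Myeloid gene expression of both stocks was checked with 12 myeloid and monocytic markers, of which 11 reached a mean of 1 CPM (counts scaled to library size). Their summed level was 3560 to 4426 CPM in ATCC and 3282 to 3396 CPM in DSMZ, with 6 of the 12 higher in ATCC and 3 in DSMZ. Most of that sum came from granule genes, so it says little about monocytic identity. These were CTSG (means of 1455 CPM in ATCC and 1078 CPM in DSMZ), AZU1 (952 and 430 CPM) and ELANE (618 and 868 CPM). CTSG and AZU1 were higher in ATCC and ELANE was higher in DSMZ. CD14, the surface marker of mature monocytes, was low in both and higher in ATCC, at 1.32 against 0.33 CPM, and the granule enzyme gene MPO was higher in DSMZ, at 90.4 against 10.9 CPM. Of 6 B-cell markers, 2 reached 1 CPM, 3 were higher in DSMZ, their sum was 6.74 to 7.64 CPM in ATCC and 18.7 to 22.2 CPM in DSMZ, and MS4A1 had no counts. The sum of 5 NK-cell markers was 13.2 to 16.3 CPM in ATCC and 5.77 to 8.64 CPM in DSMZ, with 2 higher in ATCC. The sum of 7 T-cell markers was 147 to 182 CPM in ATCC and 264 to 286 CPM in DSMZ, nearly all of it CD4, which monocytes also carry. CD4 and CD8A were higher in DSMZ, CD5 was higher in ATCC, and CD3E had no counts. The part of these lists in the members' differences was not tested, and in bulk RNA fewer cells that carry a transcript cannot be told apart from less of it per cell.

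LILRA1 and SIRPA were higher in DSMZ cells, by 6.12-fold and 1.70-fold, and LILRA2 was higher by 1.41-fold. LILRB1, LILRB2, LILRB4 and LAIR1 did not pass the test, and LILRA5, LILRA6 and LILRB3 had too few counts to be tested. Thus 3 of the 7 tested members were higher in DSMZ and none was higher in ATCC, where 24.1% and 25.7% of all tested genes were, and 49.8% in either direction. A count of 3 in 7 is close to the share in either direction and is not by itself a result about the receptors. The median log2 fold change, DSMZ minus ATCC, was 0.50 over the 7 tested members and 0.01 over all tested genes. The 3 libraries of each bank did not overlap in 4 of the 10 members (LILRA1, LILRA6, LILRB1 and SIRPA), all of them higher in DSMZ, and 3 of these were among the 7 tested. Among all tested genes, 31.6% had all DSMZ libraries above all ATCC libraries, 30.7% the reverse, and 62.4% either.

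**Figure D1:**
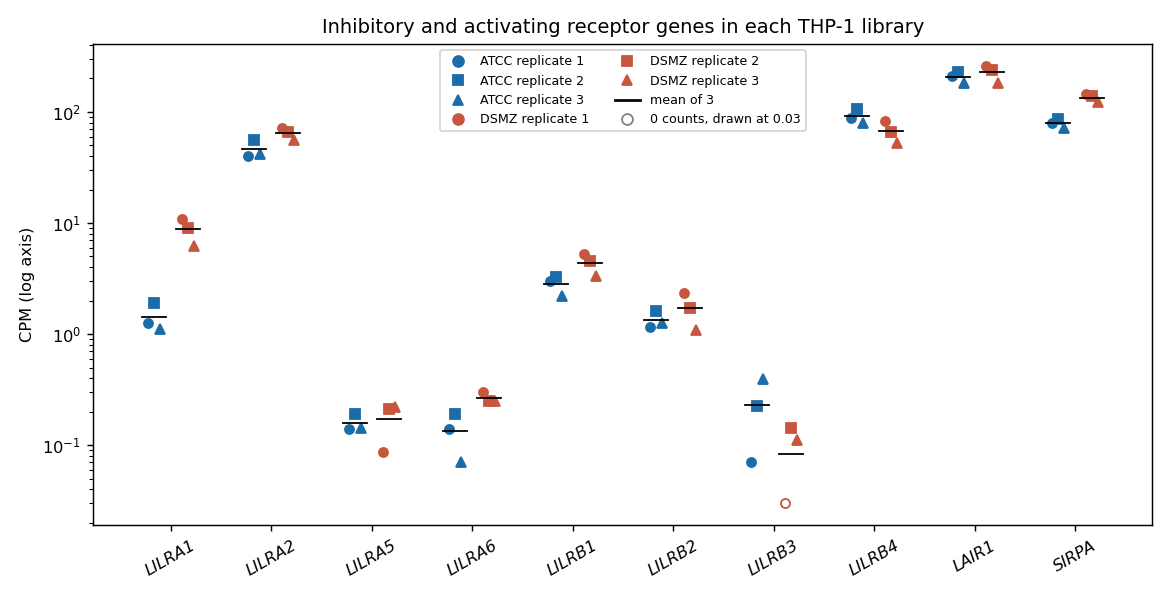
Level of each member in each of the 6 libraries, as CPM on a log axis, with symbols for the replicates and a bar at the mean of 3. All DSMZ libraries of LILRA1 (6.20 to 10.98 CPM) and SIRPA (122 to 144 CPM) lie above all ATCC libraries of the same gene, while LAIR1 and LILRB2 overlap widely.

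Levels of different genes were compared per length, as TPM (abundance scaled by transcript length). In ATCC cells LAIR1 was the most abundant member at 254 ± 20.8 TPM (SD, n = 3), ahead of LILRB4 at 94.8 ± 15.7, LILRA2 at 36.9 ± 6.73 and SIRPA at 24.5 ± 1.92 TPM. In DSMZ cells the order was the same, with LAIR1 at 265 ± 58.1, LILRB4 at 66.0 ± 16.6, LILRA2 at 48.1 ± 7.26 and SIRPA at 40.9 ± 4.06 TPM. The ranges of these 4 neighbours were separate in ATCC, whereas in DSMZ those of LILRB4 and LILRA2 overlapped, as did those of LILRA2 and SIRPA. LILRA1 held the seventh place in ATCC, at 0.83 ± 0.23 TPM behind LILRB1 (2.40 ± 0.73) and LILRB2 (1.45 ± 0.24). In DSMZ it held the fifth, at 4.80 ± 1.34 TPM, with a range overlapping that of LILRB1 (3.99 ± 1.81), which in turn overlapped that of LILRB2 (2.53 ± 1.15). LILRA5, LILRB3 and LILRA6 stayed at means of 0.31 TPM or less in both banks, and their ranges overlapped each other's in order. On the CPM scale, which is not per length, LAIR1, LILRB4, LILRA2 and SIRPA together made 96.7 to 98.6% of the summed level of the members in every library.

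Among the activating receptors, LILRA1 (chromosome 19, plus strand, chr19:54593582-54602090) is a short-tailed receptor reported to bind HLA class I. It was at 1.27, 1.89 and 1.11 CPM in the ATCC libraries and at 10.98, 9.06 and 6.20 CPM in the DSMZ libraries, from 31 to 50 and 223 to 256 counts. Every DSMZ library was above every ATCC library. The log2 fold change was 2.61 with a standard error of 0.28 (95% interval 1.95 to 3.28, edgeR quasi-likelihood adjusted p = 0.00026). Of all tested genes, 3.83% had a larger absolute change. An exact two-sided permutation test of 3 against 3 gave p = 0.1, the smallest it can give. LILRA1 passed the threshold in all 19 alternative settings that gave it a value, and without ATCC replicate 2 its log2 fold change was 2.87.

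LILRA2 (chr19:54572920-54590287, plus strand) lies just upstream of LILRA1 and encodes a receptor known for sensing immunoglobulin that microbial proteases have cut. It was at 39.8, 56.4 and 41.5 CPM in ATCC and at 72.1, 66.2 and 56.4 CPM in DSMZ. The highest ATCC library, replicate 2, met the lowest DSMZ library, replicate 3, so the groups overlapped by a narrow margin. This amounted to a log2 fold change of 0.50 with a standard error of 0.16 (edgeR quasi-likelihood adjusted p = 0.037). The call rested on single libraries. Without ATCC replicate 1 or 3 the log2 fold change was 0.37 or 0.40 (edgeR adjusted p = 0.12 and 0.16), and without DSMZ replicate 1 or 2 it was 0.40 or 0.47 (edgeR adjusted p = 0.16 and 0.13). Without ATCC replicate 2 it was 0.68 (edgeR adjusted p = 0.00044). The call was also lost with upper-quartile scaling (0.41), on log2(TPM + 0.5) values (0.38) and with an offset for effective length (0.39).

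The difference in LILRA2 was unevenly spread over its transcripts. LILRA2-201, which has the longest last exon, chr19:54587201-54590287, was at 8.71, 10.4 and 9.26 CPM in ATCC and at 28.2, 22.8 and 18.3 CPM in DSMZ. All other LILRA2 transcripts together were at 31.1, 46.0 and 32.3 CPM in ATCC and at 43.9, 43.3 and 38.1 CPM in DSMZ. The first set did not overlap between the banks and the second did. LILRA2-201 thus held 18.4 to 22.3% of the gene's counts in ATCC and 32.4 to 39.1% in DSMZ, a description without a test. Its last exon runs 2727 bases beyond the end of LILRA2-202, as 3′ UTR, and stops 3295 bases before the annotated start of LILRA1. The annotated gene AC245036.5 lies within this exon on the same strand, and 14.9% of the 31-base words of LILRA2 are shared with it. It was not among the genes to which transcripts were assigned. Any reads from it could therefore not be separated from those of LILRA2-201, and its part in the difference was not tested. The remaining counts fell mainly on 2 near-identical alternative-sequence copies, ENST00000620279 and ENST00000621721. Their summed counts were 499 to 841 in ATCC and 538 to 844 in DSMZ, but the split between them moved between replicates, from 799 against 0.08 in DSMZ replicate 2 to 144 against 700 in DSMZ replicate 3.

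LILRA5 (chr19:54307070-54313139, minus strand) and LILRA6 (chr19:54236592-54242791, minus strand), the other activating members, were near the limit of detection. LILRA5 had 4, 5 and 4 counts in ATCC and 2, 6 and 8 in DSMZ, with overlapping groups. LILRA6, whose extracellular part is nearly the same as that of LILRB3, had 4, 5 and 2 counts in ATCC and 7, 7 and 9 in DSMZ. Its groups did not overlap (exact two-sided permutation p = 0.1, the smallest possible), on 11 against 23 counts in all. Counts this low set no firm difference.

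The inhibitory receptor LILRB1 (chr19:54617158-54637528, plus strand), which binds HLA class I, was at 3.04, 3.29 and 2.21 CPM in ATCC and at 5.25, 4.57 and 3.31 CPM in DSMZ. The DSMZ libraries lay above the ATCC libraries, the lowest of them (replicate 3) only just above the highest of ATCC (replicate 2). Between the banks LILRB1 had a log2 fold change of 0.61 with a standard error of 0.23 (95% interval 0.07 to 1.15), and missed the threshold (edgeR quasi-likelihood adjusted p = 0.059, exact permutation p = 0.1). It passed in 7 of 21 alternative settings, among them without ATCC replicate 2 (0.73, edgeR adjusted p = 0.025) and without DSMZ replicate 3 (0.79, edgeR adjusted p = 0.031). An antisense gene, LILRB1-AS1, overlaps its 3′ end, and no source states whether strand was used in counting.

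LILRB2 (chr19:54273821-54281184, minus strand), also a receptor for HLA class I, was at 1.17, 1.63 and 1.25 CPM in ATCC and at 2.34, 1.73 and 1.08 CPM in DSMZ. The lowest value of all 6 was DSMZ replicate 3 and the highest DSMZ replicate 1, so the groups overlapped fully. The log2 fold change of 0.33, with a standard error of 0.31, was not past the threshold (edgeR quasi-likelihood adjusted p = 0.41), and its 95% interval ran from -0.39 to 1.05. It moved to 0.04 without DSMZ replicate 1, 0.20 without ATCC replicate 1, 0.60 without DSMZ replicate 3 and 0.48 without ATCC replicate 2, none of which passed. LILRB3 (chr19:54216278-54223506, minus strand) had 2, 6 and 11 counts in ATCC and 0, 4 and 4 in DSMZ, again with overlap, and its count of 0 allows up to 3. Summed over LILRB3 and LILRA6, which share words, the log2 fold change was -0.03 (edgeR quasi-likelihood adjusted p = 0.95). Both lie within the span of RPS9, which the annotation places on the other strand.

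LILRB4 (chr19:54643889-54670359, plus strand), an inhibitory receptor of monocytes for which APOE has been described as a ligand, was the most abundant LILR gene per length. It was at 88.1, 106.9 and 79.5 CPM in ATCC and at 83.2, 66.3 and 52.6 CPM in DSMZ. The highest DSMZ library, replicate 1, was above the lowest ATCC library, replicate 3, and the other DSMZ libraries were below all of ATCC. LILRB4 had a log2 fold change of -0.44 with a standard error of 0.19 (95% interval -0.88 to -0.01, edgeR quasi-likelihood adjusted p = 0.084). LILRB4 was the one tested member with a negative value in this fit. Its direction was the same in all 22 alternative settings, and 6 of them passed the threshold, including an offset for GC content (-0.44, edgeR adjusted p = 0.025) and leaving out DSMZ replicate 1 (-0.63, edgeR adjusted p = 0.038). Without ATCC replicate 2 it was -0.31 (edgeR adjusted p = 0.11), and without DSMZ replicate 3 it was -0.29 (edgeR adjusted p = 0.25).

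Summed by class, the LILRA genes were at 41.3, 58.7 and 42.9 CPM in ATCC and at 83.4, 75.7 and 63.1 CPM in DSMZ. The LILRB genes were at 92.4, 112 and 83.3 CPM in ATCC and at 90.8, 72.7 and 57.1 CPM in DSMZ. Their ratio, LILRA over LILRB, was 0.45, 0.52 and 0.51 in ATCC and 0.92, 1.04 and 1.10 in DSMZ, with no overlap. CPM is not per length, so the ratio does not compare the abundance of the classes. Per length, mean LILRB4 exceeded mean LILRA2 in ATCC (94.8 against 36.9 TPM). The same held in DSMZ (66.0 against 48.1 TPM), where the ranges overlapped. The ratio was formed after the members' values were seen, so it is a description without a test, and it mostly reflects LILRA2 and LILRB4, the 2 abundant LILR genes.

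LAIR1 (chr19:54351384-54370558, minus strand), the collagen receptor, was at 209.8, 229.5 and 182 CPM in ATCC and at 259.6, 237 and 183 CPM in DSMZ. Replicate 3 was the lowest library in both banks, and the groups overlapped. LAIR1 had a log2 fold change of 0.13 with a standard error of 0.15 (edgeR quasi-likelihood adjusted p = 0.50). Its 95% interval, -0.22 to 0.48, leaves room for a modest difference either way. With 1 library left out it ran from 0.01 (without DSMZ replicate 1) and 0.02 (without ATCC replicate 3) to 0.22 (without ATCC replicate 2) and 0.27 (without DSMZ replicate 3), and without DSMZ replicate 2 it was 0.09, none of which passed.

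SIRPA (chr20:1894167-1940592, plus strand), the receptor for CD47, was at 79.7, 86.5 and 71.7 CPM in ATCC and at 144, 138 and 122 CPM in DSMZ. All DSMZ libraries were above all ATCC libraries, and the gap between the groups was wider than the range within either. SIRPA had a log2 fold change of 0.76 with a standard error of 0.11 (95% interval 0.50 to 1.02, edgeR quasi-likelihood adjusted p = 0.0010, exact permutation p = 0.1). It passed the threshold in all 22 alternative settings, at log2 fold changes of 0.67 to 0.84, the highest without ATCC replicate 2. Of its 4 transcripts, SIRPA-201 held 69.0 to 74.0% of counts in ATCC and 68.2 to 71.1% in DSMZ, and SIRPA-203 held 23.1 to 26.0% and 23.5 to 27.4%. The makeup by transcript therefore overlapped between the banks while the level did not. Among 9608 other protein-coding genes with a mean of at least 8 CPM, the 3 with the pattern most like that of SIRPA over the 6 libraries were NUP210, BTN3A3 and CES1. Their root mean square differences from SIRPA in centred log2 CPM were 0.048, 0.052 and 0.058.

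**Figure D2:**
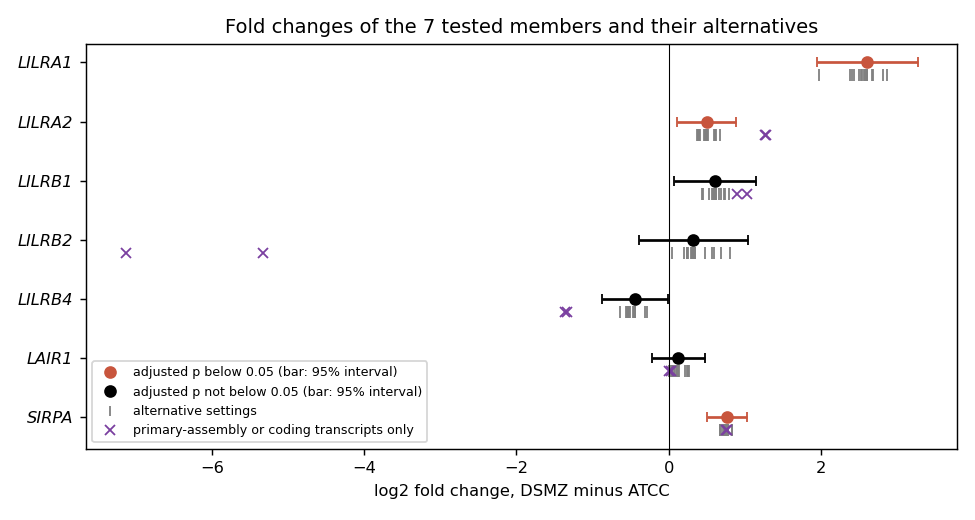
Log2 fold change (DSMZ minus ATCC) of the 7 tested members with 95% intervals, and below each the values under alternative settings as grey ticks and purple crosses. LILRA1, which has no crosses because too few counts were left to test it, and SIRPA lie above 0 wherever they were fitted. The crosses, for which counts of alternative-sequence copies were dropped, lie far to the left for LILRB2 (-5.33 and -7.14).

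The LILR genes and LAIR1 lie in 1 cluster on chromosome 19 of which the genome build carries many alternative sequences, and the deposited transcript set held copies from them. The 9 members on chromosome 19 had 423 transcripts, 85 on the primary assembly and 338 on alternative sequences, whereas SIRPA had 4, all primary. In LAIR1, 22.2 to 23.2% of counts fell on primary transcripts in ATCC and 20.1 to 22.2% in DSMZ, so most of its reads were assigned to alternative copies in every library. For LILRB2 the primary share was 57.7, 42.2 and 43.2% in ATCC and 0, 0.21 and 3.74% in DSMZ. The libraries of LILRB2 were thus separate in how reads were divided between copies, though not in the level of the gene. For LILRA2 the primary share was higher in DSMZ, at 32.7 to 40.3% against 19.1 to 22.9%, and for LILRB4 it was lower, at 4.95 to 9.05% against 10.2 to 12.6%. LILRB1 ranged from 29.04 to 79.0% in ATCC and from 57.7 to 87.0% in DSMZ. Of LILRA1, 0 to 13.2% of counts were on primary transcripts in ATCC and 0.01 to 0.89% in DSMZ. In counts these were 1.77, 6.61 and 0 in ATCC and 0.02, 1.97 and 1.98 in DSMZ, so the higher level of LILRA1 in DSMZ stood on alternative-sequence copies. A single alternative copy of LILRA1, ENST00000612547, held 2.00 to 4.91% of counts in ATCC and 22.4 to 23.4% in DSMZ.

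**Figure D3:**
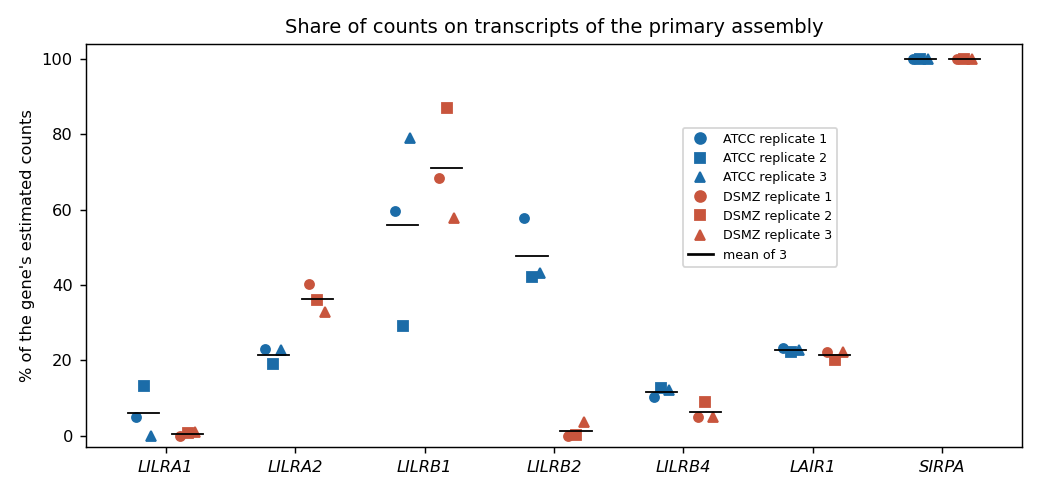
Share of each gene's estimated counts, in percent, on transcripts of the primary assembly in each library, with bars at the means of 3. LILRB2 is at 42.2 to 57.7% in ATCC and near 0 in DSMZ, LILRA2 is higher in DSMZ, and SIRPA is at 100% in all.

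A fit on primary-assembly transcripts alone therefore changed several members. The log2 fold change of LILRB2 turned to -5.33 (edgeR quasi-likelihood adjusted p = 0.00022), from 15.2 to 19.2 counts in ATCC and at most 1.44 in DSMZ, where the fitted value depends on the prior count and is no measure of size. LILRA2 moved to 1.27 (edgeR adjusted p = 0.00088), LILRB1 to 1.03 (edgeR adjusted p = 0.036) and LILRB4 to -1.36 (edgeR adjusted p = 0.0070). LAIR1, at 0.03, and SIRPA, at 0.75, kept their side of the threshold, and LILRA1 had too few primary counts to be tested. Summing LILRA1, LILRA2 and LILRB1, so that reads divided among them cannot matter, gave 0.64 (edgeR adjusted p = 0.016). That sum was mostly LILRA2, at means of 45.9 CPM in ATCC and 64.9 CPM in DSMZ. LILRA1 had 1.42 and 8.75 CPM, and LILRB1 had 2.85 and 4.37 CPM. The sum does not cover words shared with LILRB2, which were 7.23% of those of LILRA1 and 12.9% of those of LILRB1.

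The start sites of some members are nearly the same sequence as well. RefSeq promoter windows (GRCh38.p14, 250 bases before to 50 after a start) were matched for LILRA1, LILRA2, LILRA5, LILRB1, LILRB2, LILRB3, LILRB4 and LAIR1. The pair most alike was a window of LILRA1, chr19:54593382-54593681, and one of LILRB1, chr19:54630234-54630533, both on the plus strand, with 282 of 301 aligned positions the same (93.7%). They are shown because both genes had all DSMZ libraries above all ATCC libraries. Capitals mark bases that differ from, or are absent in, the other window.
LILRA1: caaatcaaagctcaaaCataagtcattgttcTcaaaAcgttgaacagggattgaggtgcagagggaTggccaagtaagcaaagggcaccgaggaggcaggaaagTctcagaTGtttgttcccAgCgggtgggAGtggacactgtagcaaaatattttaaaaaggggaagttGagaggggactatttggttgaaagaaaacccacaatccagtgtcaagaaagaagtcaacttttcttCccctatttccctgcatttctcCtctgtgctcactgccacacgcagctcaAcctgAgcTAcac
LILRB1: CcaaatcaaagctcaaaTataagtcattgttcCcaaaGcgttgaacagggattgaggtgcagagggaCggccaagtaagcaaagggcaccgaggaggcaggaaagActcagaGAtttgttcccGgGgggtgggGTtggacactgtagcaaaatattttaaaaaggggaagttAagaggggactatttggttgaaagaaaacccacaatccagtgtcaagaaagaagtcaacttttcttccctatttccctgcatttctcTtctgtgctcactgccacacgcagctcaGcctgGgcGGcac
A window of LILRB2, which overlapped fully between the banks, was 90.4% identical to each of them. The window of LILRB4, chr19:54662735-54663034 on the plus strand, is shown as that of the one tested member with a negative log2 fold change over all copies. Capitals mark matches to GAGGAA, letters bound by PU.1 (1 match, letters present in 27.9% of 35116 promoter windows), and to a composite of ETS and IRF letters (2 matches, present in 2.82% of windows), on either strand.
LILRB4: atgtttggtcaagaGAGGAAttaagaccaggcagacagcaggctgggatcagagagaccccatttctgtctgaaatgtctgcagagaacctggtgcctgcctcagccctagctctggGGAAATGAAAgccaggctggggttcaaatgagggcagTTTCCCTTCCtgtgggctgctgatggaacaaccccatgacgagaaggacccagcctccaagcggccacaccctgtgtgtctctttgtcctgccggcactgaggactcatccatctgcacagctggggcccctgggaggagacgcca
GAGGAA was not particular to LILRB4. It was also found in the windows of LILRA5, LILRB3 and LAIR1, and in a window of LILRB1 other than the one shown. None of the other windows of the members held the composite. The windows of LILRA1 held no match to either motif or to TTGCNNAA (C/EBP letters, 10.5% of windows) or TGTGGT (RUNX letters, 13.1%). A match is a description of letters only.

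Genes around the members were examined within 500 kb, where transcripts had been assigned to them. All were protein-coding genes or pseudogenes, so genes for non-coding RNA were not covered. At the chromosome 19 cluster 28 of 75 neighbouring genes were tested. DSMZ was higher in 8 of them and ATCC in 2, and the median log2 fold change was 0.22. Over the whole of chromosome 19, DSMZ was higher in 203 of 1098 tested genes and ATCC in 233, with a median of -0.03. The protein-coding neighbours with the largest differences were NLRP2 (2.03), the osteoclast-associated receptor OSCAR (2.02) and the troponin gene TNNT1 (1.52), all higher in DSMZ, and KIR3DL2 (-1.26), which passed in 13 of 19 alternative settings. KIR3DL2 lost its call without ATCC replicate 2 (-0.81, edgeR adjusted p = 0.070) and without any of the DSMZ libraries (edgeR adjusted p = 0.062 to 0.11). The pseudogene LILRP1, which shares 9.29% of the 31-base words of LILRA6 and was picked after its value was seen, was at 1.34, 2.23 and 1.46 CPM in ATCC and at 0.13, 0.18 and 0.06 CPM in DSMZ (log2 fold change -3.81, standard error 0.42, edgeR quasi-likelihood adjusted p = 0.00026).

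At the SIRPA locus on chromosome 20, 8 of 9 tested neighbours were higher in DSMZ and none in ATCC. These included all 7 tested protein-coding neighbours, among them the signal-regulatory genes SIRPB2 (log2 fold change 1.47), SIRPG (1.29), SIRPB1 (1.09) and SIRPD (1.02), the unnamed gene AL049634.2 (1.45), and STK35 (1.08) and NSFL1C (0.88). The span of AL049634.2 overlaps those of SIRPB1 and SIRPD on the same strand, and the tested pseudogene AL049634.1 overlaps SIRPD. These neighbours may share reads and are not all separate evidence. The median over the 9 was 1.09, against 0.32 over the 382 tested genes of chromosome 20, where DSMZ was higher in 172 and ATCC in 39. SIRPA itself, at 0.76, was below all 9 of them. SIRPB1, an activating relative which shares 13.0% of the 31-base words of SIRPA, was at 47.3, 43.8 and 41.8 CPM in ATCC and at 92.6, 99.8 and 91.2 CPM in DSMZ, without overlap.

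**Figure D4:**
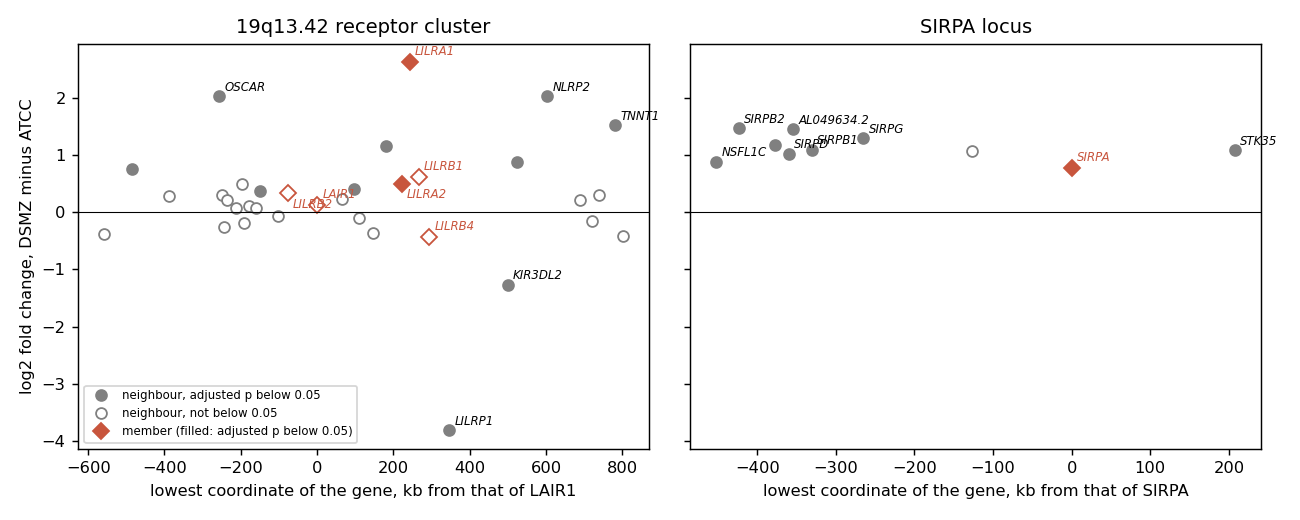
Log2 fold change (DSMZ minus ATCC) of members (diamonds) and tested neighbours (circles) against the distance in kb from LAIR1 (left) and from SIRPA (right), with filled symbols for an adjusted p below 0.05. Values lie on both sides of 0 in the left panel, and all lie above 0 in the right panel.

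Genes of the receptors' pathways were taken from lists by function. Among 13 tested ligands of LILR receptors, DSMZ was higher in 9 and ATCC in 1, with a median log2 fold change of 0.48. The alarmins S100A8 (2.38) and S100A9 (1.77) and the lipoprotein APOE (2.26) had the largest differences, and BST2, the ligand of a LILR not among the members, was higher in ATCC (-0.72). Each of these passed in all 22 alternative settings. HLA-C had a mean of 249 CPM in ATCC and 361 CPM in DSMZ, and HLA-B had 406 and 513 CPM, with log2 fold changes of 0.53 and 0.34, and B2M, the light chain of HLA class I, had 0.30. HLA-B did not pass (edgeR adjusted p = 0.079), but passed in 7 of 22 alternative settings, among them without ATCC replicate 2 (0.51, edgeR adjusted p = 0.00020), on TPM values (0.50) and with the GC offset (0.37). B2M passed in 14 of 22 alternative settings, and not without ATCC replicate 3 or any single DSMZ library (edgeR adjusted p up to 0.15). HLA-C missed without ATCC replicate 3 (0.44, edgeR adjusted p = 0.062) and without DSMZ replicate 1 (0.48, edgeR adjusted p = 0.057). HLA genes, too, have alternative-sequence copies, and on primary transcripts alone HLA-B stood at 2.51.

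Of 16 ligands of LAIR1, 8 were tested, and 4 were higher in ATCC and none in DSMZ. The collagen genes concerned were COL6A1 (log2 fold change -3.33), COL4A2 (-0.82), COL23A1 (-0.76) and COL4A1 (-0.73). COL6A1, a chain of the microfibrillar collagen VI, was at 21.4 ± 0.31 CPM in ATCC and 2.11 ± 0.15 CPM in DSMZ (SD, n = 3). COL4A2 did not pass on TPM values (-0.10) or with the length offset (-0.11). The receptor itself overlapped between the banks, as described above. For SIRPA, the ligand CD47 was at 107 ± 15.7 CPM in ATCC and 172 ± 12.7 CPM in DSMZ (log2 fold change 0.68, standard error 0.13, edgeR quasi-likelihood adjusted p = 0.0034). Receptor and ligand were thus both higher in DSMZ. QPCT, an enzyme of the family that modifies the SIRPA-binding end of CD47, was higher in ATCC (-1.72), while its relative QPCTL, the enzyme known to modify CD47, was at 11.8 and 11.7 CPM (log2 fold change -0.01, edgeR adjusted p = 0.98). Also higher in ATCC was the CD47-binding thrombospondin THBS1 (-0.71), which missed the threshold without DSMZ replicate 2 (-0.72, edgeR adjusted p = 0.071) or 3 (-0.54, edgeR adjusted p = 0.086).

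All 9 inhibitory effectors were tested, with 2 higher in DSMZ, 5 higher in ATCC and a median log2 fold change of -0.33. The phosphatase genes INPP5D (0.55) and PTPN6 (0.37) were those higher in DSMZ, while PTPN11 was at 252 ± 81.1 CPM in ATCC and 240.7 ± 1.91 CPM in DSMZ (log2 fold change -0.07, edgeR adjusted p = 0.82). PTPN6 passed in 10 of 22 alternative settings and, with 1 library left out, only without ATCC replicate 2 (edgeR adjusted p up to 0.17, and 0.25 as its lowest log2 fold change, without ATCC replicate 1). INPP5D missed only without ATCC replicate 3 (0.46, edgeR adjusted p = 0.051). PTPN11 passed only without ATCC replicate 2 (-0.30, edgeR adjusted p = 0.00095). The adaptor genes PAG1 (-1.99), DOK2 (-1.60) and DOK1 (-1.02) were higher in ATCC and passed in all 22.

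Among the 17 activating adaptors and kinases, all tested, DSMZ was higher in 3 and ATCC in 7, with a median of -0.12. FCER1G, the partner chain of the LILRA receptors, was at 54.1 ± 9.55 CPM in ATCC and 24.4 ± 2.10 CPM in DSMZ (log2 fold change -1.15, standard error 0.15, edgeR quasi-likelihood adjusted p = 0.00059). The kinase SYK, which acts after it, was at 354 ± 49.1 and 208 ± 8.47 CPM (-0.76, standard error 0.11, edgeR adjusted p = 0.0012). LILRA1 and LILRA2 were thus higher in the bank in which their partner chain was lower. CARD9 (-2.05) and BTK (-0.98) were also higher in ATCC, whereas the adaptor HCST (2.39), PIK3R1 (0.76) and LCP2 (0.44) were higher in DSMZ. PIK3R1 missed the threshold without ATCC replicate 3 (0.81, edgeR adjusted p = 0.071) and without each DSMZ library (edgeR adjusted p up to 0.10), and without ATCC replicate 2 it was 0.50. LCP2 missed it without ATCC replicate 3 (0.36, edgeR adjusted p = 0.051).

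Related receptors moved both ways. Among 8 family genes outside the members, 6 were tested and the 4 SIRP genes named above were higher in DSMZ, while LILRB5 (-0.07) and LAIR2 (-0.36) did not pass. Among 22 other paired or inhibitory myeloid receptors 15 were tested, with DSMZ higher in 5 and ATCC in 6, and the median was -0.41. OSCAR (2.02), CD300A (0.88) and the IgA receptor FCAR (0.88) were higher in DSMZ, and CD300LB (-1.63), TREM2 (-1.44) and CD33 (-1.31) in ATCC. FCAR did not pass on TPM values (0.48) or with the length offset (0.66). Over all 93 listed genes outside the members, 72 were tested, with 24 higher in DSMZ and 25 in ATCC.

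**Figure D5:**
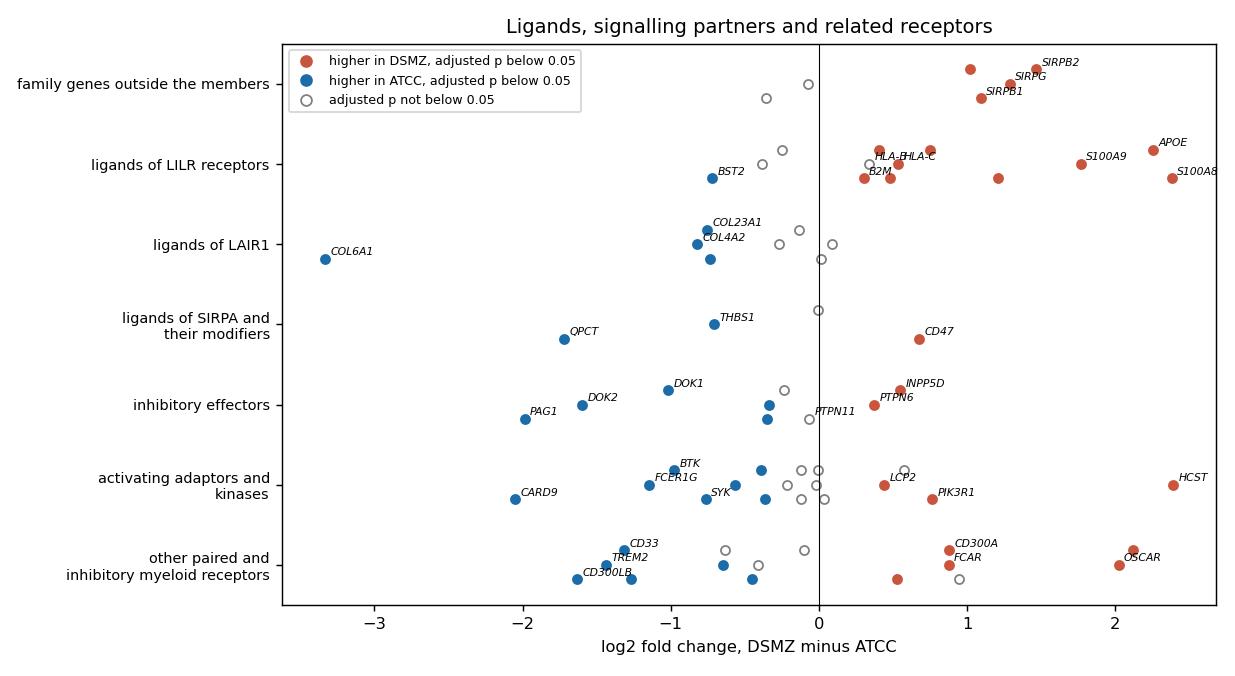
Log2 fold change (DSMZ minus ATCC) of the tested genes of each list, in red or blue where the adjusted p was below 0.05 and open otherwise. SIRP genes and LILR ligands lie mostly to the right, and the called collagen genes among LAIR1 ligands lie to the left, with COL6A1 at -3.33.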

How the data were processed

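The submitters' processing notes name kallisto 0.43.0, Trimmomatic 0.35, bcl2fastq 2.20 and the build GRCh38, with no annotation release given. The deposited files give, per the file headers, the length, effective length, estimated count and TPM of each of 179973 transcripts. The estimated counts were deposited without normalization, and the TPM were deposited as scaled by kallisto.

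Of the transcripts, 163714 matched GENCODE 29 on the primary assembly, 14387 matched by symbol through the HGNC table (2.43 to 2.85% of counts), and 1872 (0.177 to 0.196%) had no gene and were left out. Counts were summed per gene, rounded, and tested with edgeR 4.0.16 in R 4.3.3 (filterByExpr, TMM, quasi-likelihood F test, Benjamini-Hochberg over 14572 genes, threshold 0.05). A standard error is the size of the log2 fold change over the square root of F, intervals use the t quantile of the fit at 95%, and CPM are TMM-scaled. The biological coefficient of variation was 15.9%. Effective lengths as deposited, a unit of their own, entered only an alternative offset.

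Named genes are, per list, up to 3 in each direction with the largest absolute log2 fold change among those past the threshold with a mean of at least 1 CPM, plus direct partners and neighbours. SIRPD and COL4A1 were added after their values were seen. STK35, NSFL1C, AL049634.1, QPCTL, LILRB5 and LAIR2 were also named outside the rule of the largest changes. The members and lists were chosen with earlier results of these data known. The 22 alternatives used other scalings, filters, tools (DESeq2 1.42.0, limma 3.58.1), transcript sets, offsets and sets of libraries. The test was also tried on counts simulated with the means and dispersions of these data, and the outcome is not given here. No libraries were near-identical (smallest chi-square per degree of freedom 4.59). ATCC replicate 2 was the farthest from its own bank, at 102.8 against replicate 1 and 61.2 against replicate 3. The other pairs within a bank had 4.59 to 12.7.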

Additional observations from a re-analysis of the deposited data

How the results depend on the processing

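The calls of LILRA1 and SIRPA held in all 19 and 22 alternatives that gave a value. In the main fit 3 members were called, all higher in DSMZ. With primary-assembly transcripts only, where LILRA1 was not tested, with a GC offset and with a replicate block, 5 were called. With the replicate block and GC offset together 6 were called, 5 of them higher in DSMZ. Over all 14572 tested genes, 7262 were called in the main fit, 9278 with the GC offset, 7015 with the block and 9231 with both. On primary-assembly transcripts 7108 of 14481 were called. The higher member counts with the GC offset thus came with more calls over all genes. With upper-quartile scaling, both TPM fits and the length offset LILRA2 was lost and 2 remained. Members higher in ATCC numbered 2 on primary-assembly and on protein-coding transcripts, and 1 with the GC offset, the replicate block or both. Leaving out 1 library gave 2 to 4 called members, 2 to 4 of them higher in DSMZ and 0 to 1 in ATCC. The log2 fold change of LILRB2 reversed to -5.33 on primary-assembly and -7.14 on protein-coding transcripts. Transcript types are known for primary-assembly transcripts only, so both settings drop alternative copies. PTPN11 reversed in 7 settings, all without passing: 0.029 on TPM with either pseudocount, 0.0058 with the length offset, 0.030 with the GC offset, 0.048 with block and GC offset, and 0.084 and 0.029 without ATCC replicate 1 or 3. It passed at -0.30 without ATCC replicate 2. The cause of these changes was not tested.

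The replicate numbers were not shown to pair libraries: same-numbered libraries correlated at 0.013, 0.080 and 0.161 in their deviations from the bank means. With the replicate block 3472 genes were higher in DSMZ and 3543 in ATCC, against 3515 and 3747 without it, and LILRB1 (0.61, edgeR adjusted p = 0.022) and LILRB4 (-0.46, edgeR adjusted p = 0.048) passed. Depth limits LILRA5, LILRA6 and LILRB3, which had at most 11 counts per library.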
